A study of Homo sapiens with 6 samples.

Results

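The genes described here make, cut and bind hyaluronan: the hyaluronan synthases HAS1, HAS2 and HAS3, the hyaluronidases HYAL1, HYAL2 and HYAL3, the depolymerisation factors CEMIP and CEMIP2, the hyaluronan-binding protein TSG-6 (gene TNFAIP6) and the hyaluronan receptor layilin (gene LAYN). They were picked by name, with earlier results of the same comparison known, and all 10 of 10 were found among the 58395 genes of the deposited table. Their levels are therefore given as a description, with no p-value. Calls that the fit over all genes made for them are counted, with the settings that changed them, and are not read as evidence. RNA was sequenced from the human clear cell renal carcinoma line 786-O, in 3 libraries of cells in which PLOD2 was knocked out with CRISPR/Cas9 (sgPLOD2) and 3 libraries of cells with a control guide (sgControl). PLOD2 encodes lysyl hydroxylase 2, an enzyme that modifies collagen before cross-linking. The labels do not say whether either group was a single clone or a pool, nor whether replicates were separate cultures, so the p-values below speak for these libraries alone, whose spread may be technical.

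Hyaluronan is a long, unsulfated polysaccharide of the pericellular matrix. The synthases extrude it through the plasma membrane as they build it from UDP-glucuronate and UDP-N-acetylglucosamine. Long chains are cut at or near the cell surface and the pieces are degraded in lysosomes, while receptors such as CD44 tether the polymer to the cell and TSG-6 decorates it with protein chains from blood-borne inter-alpha-inhibitor. In the normal kidney hyaluronan is mainly a component of the medullary interstitium.

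The promoters of CEMIP, HAS3 and TNFAIP6 are shown because these genes had large differences in opposite directions and a window in the RefSeq table. RefSeq (GRCh38.p14) gave a window of 250 bases before to 50 bases after the start for 8 of the 10 genes. Capitals mark matches on either strand to ACGTG or GCGTG, the cores of the hypoxia response element, to TGANTCA, the AP-1 motif, or to the TATA box TATAAA. The windows are CEMIP at chr15:80779120-80779419 on the plus strand, HAS3 at chr16:69107290-69107589 on the plus strand and TNFAIP6 at chr2:151357342-151357641 on the plus strand.
CEMIP: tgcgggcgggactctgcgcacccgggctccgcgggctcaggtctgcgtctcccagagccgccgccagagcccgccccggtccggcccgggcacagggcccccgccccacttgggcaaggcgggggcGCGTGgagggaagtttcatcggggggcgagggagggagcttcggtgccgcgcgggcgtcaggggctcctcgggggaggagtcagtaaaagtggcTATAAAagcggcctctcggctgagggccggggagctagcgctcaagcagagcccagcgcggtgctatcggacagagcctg
HAS3: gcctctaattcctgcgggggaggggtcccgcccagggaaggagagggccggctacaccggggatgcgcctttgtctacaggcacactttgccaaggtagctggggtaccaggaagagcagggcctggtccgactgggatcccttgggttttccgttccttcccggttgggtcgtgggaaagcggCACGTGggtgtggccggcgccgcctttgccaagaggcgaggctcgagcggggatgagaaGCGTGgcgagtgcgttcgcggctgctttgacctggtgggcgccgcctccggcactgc
TNFAIP6: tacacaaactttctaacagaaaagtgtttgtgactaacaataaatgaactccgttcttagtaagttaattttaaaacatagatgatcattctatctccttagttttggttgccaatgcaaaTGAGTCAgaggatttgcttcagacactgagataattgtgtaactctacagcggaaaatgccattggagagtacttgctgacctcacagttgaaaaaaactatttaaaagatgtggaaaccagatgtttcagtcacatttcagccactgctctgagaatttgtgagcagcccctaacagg
The CEMIP window held 32 CpG dinucleotides and the HAS3 window 25, against 2 in the TNFAIP6 window and a median of 14 over 27305 promoter windows of the same length. TNFAIP6 had 1 AP-1 match, at positions -129 to -123 counted from the start, and 7.76% of all windows held at least 1. CEMIP had a TATA box at -30 to -25, found in 12% of windows, and 1 GCGTG at -124 to -120, found in 36.3%. HAS3 had overlapping ACGTG matches on both strands between -66 and -61, a motif found in 21.6% of windows, and 1 GCGTG at -7 to -3. The NF-kB motif was also searched; none of the 8 windows matched it, and 10.8% of all windows did. Among the windows not shown, HYAL1 and HYAL2 also held GCGTG, HYAL3 held both hypoxia cores, and HAS1 and CEMIP2, like TNFAIP6, held neither. A match is a description of the letters only. The HAS3 start in RefSeq lies inside the gene as deposited, which begins at 69105653 on chromosome 16, so this window may not be the start used in these cells.

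The values are FPKM, which scale fragments to gene length and to the mapped total, so levels of different genes can be set side by side. Between 9874 and 10649 genes reached 1 FPKM per library, and FPKM summed to between 229485 and 268612 per library. Log2 values correlated at 0.971 to 0.987 within groups and 0.898 to 0.927 between them across tested genes, which are not independent replicates. The mitochondrial share of summed FPKM was 6.01% to 6.72% in sgPLOD2 and 12.9%, 7.5% and 6.96% in sgControl. PLOD2 itself had 5.98, 10.1 and 6.64 FPKM in sgPLOD2, against 26.8, 25.7 and 21.5 FPKM in sgControl, and fell (log2 fold change of FPKM + 1 -1.61 ± 0.18 SE, limma adjusted p = 0.000509). The libraries labelled sgControl had the 786-O trait of little HIF1A, whereas those labelled sgPLOD2 did not: HIF1A had 39.1, 38.4 and 35.6 FPKM in sgPLOD2, against 0.311, 0.539 and 0.409 FPKM in sgControl. An effect of the knockout and any other difference between the 2 populations cannot be told apart in this design. All 7 renal epithelial and renal carcinoma markers were expressed, with sums of 268 to 314 FPKM in sgPLOD2 and 257 to 266 FPKM in sgControl that KRT8, KRT18 and CDH2 dominated. Within this list LHX1, CDH6 and CDH2 rose and PAX2 fell (limma adjusted p between 2.91e-05 and 0.0191). All 5 endothelial and all 5 fibroblast markers stayed below 1 FPKM in every library, with sums of 0.0911 to 0.161 FPKM (endothelial) and 0.322 to 0.478 FPKM (fibroblast) in sgPLOD2 and of 0.0290 to 0.0447 FPKM and 0.259 to 0.509 FPKM in sgControl. Of 5 leukocyte markers only CD68, a lysosomal protein gene that other cells use too, passed 1 FPKM, CD3E was listed at 0 throughout, and the list summed to 5.44 to 6.51 FPKM in sgPLOD2 and 11.4 to 18.3 FPKM in sgControl. In bulk RNA, fewer expressing cells and less RNA per cell cannot be told apart for any gene below.

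The 10 genes differed between the groups in both directions. Synthase transcripts were higher in sgPLOD2, mostly through HAS3, and CEMIP was present there and nearly absent in sgControl. The binding partners TNFAIP6 and LAYN were lower in sgPLOD2 by more than an order of magnitude. The hyaluronidases HYAL2 and HYAL3 had groups that overlapped and were not called in the fit that follows. In the authors' comparison, however, the adjusted p of HYAL3 was under 0.05. A limma fit took in the 10469 genes that averaged 1 FPKM or more, 8 of these 10 among them, and called 4 of the 8 higher and 2 lower in sgPLOD2 (Benjamini-Hochberg adjusted p under 0.05). Over all tested genes 29.5% were called higher and 23.5% lower, 52.9% in all, and nothing is read from the counts because the genes were chosen with this comparison known. Higher calls made up 55.7% of all calls, 66.8% when values were rescaled to TPM, and 47.1% with median-of-ratios scaling, where lower calls were the majority. CEMIP and HAS2 passed the minimum only through sgPLOD2, and TNFAIP6 and LAYN only through sgControl, and so had to differ. The groups did not overlap for 6 of those 8 genes, against 62.7% of all tested genes. The median log2 fold change was 0.43 for the 8 genes and 0.06 for all tested genes.

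**Figure D1:**
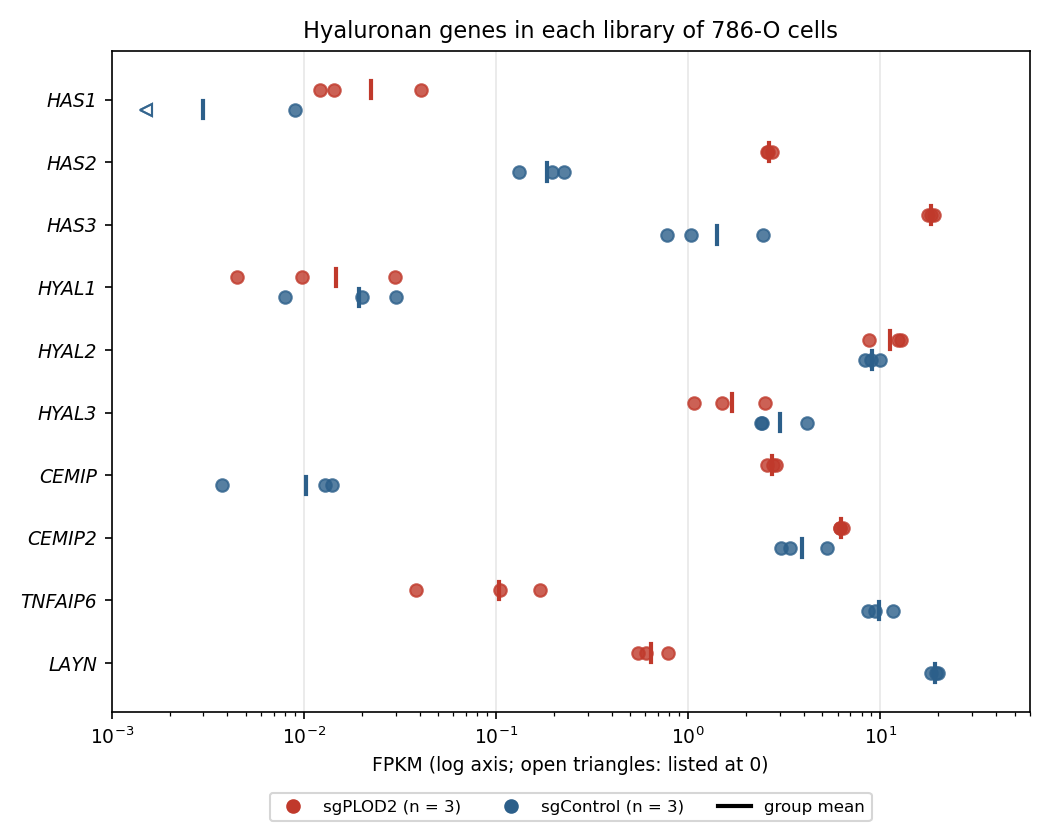
FPKM of the 10 hyaluronan genes in each library (log axis; sgPLOD2 in red above sgControl in blue, n = 3 each; vertical bars are group means, and the open triangle stands for both sgControl libraries in which HAS1 was listed at 0). HAS2, HAS3 and CEMIP lie to the right in sgPLOD2, TNFAIP6 and LAYN lie to the right in sgControl, and HYAL1, HYAL2 and HYAL3 overlap.

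HAS3, the synthase generally described as making shorter hyaluronan chains, was the most abundant of the 10 transcripts in sgPLOD2. HAS3 (ENSG00000103044; GRCh38, chromosome 16, 69105653 to 69118719, plus strand) had 17.8, 19.0 and 18.3 FPKM in sgPLOD2, against 2.44, 1.03 and 0.776 FPKM in sgControl. Every sgPLOD2 library was above every sgControl library, and sgControl replicate 1 stood above the other control libraries. Without that library the ratio of means was 20.3, with a sgControl mean of 0.903 FPKM. The means were 18.4 ± 0.61 FPKM in sgPLOD2 and 1.42 ± 0.90 FPKM in sgControl (SD, n = 3 each), a ratio of 13.0 and a log2 fold change of 3.06 ± 0.23 (SE) on log2(FPKM + 1). The authors' deposited table gave HAS3 a log2 fold change of 3.60 ± 0.34 (SE). Its fold change ranked 14 from the highest among the 10469 tested genes. Of all tested genes, 79.0% had a lower mean level than HAS3 in sgPLOD2 and 13.1% had a lower one in sgControl.

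HAS2, the synthase of long hyaluronan chains and the one required for heart development in mice, was lower than HAS3 in level but differed by a similar ratio. HAS2 (ENSG00000170961; chromosome 8, 121612116 to 121641440, minus strand) had 2.62, 2.57 and 2.75 FPKM in sgPLOD2, against 0.227, 0.196 and 0.131 FPKM in sgControl. No library overlapped with the other group. HAS2 averaged 2.65 ± 0.09 FPKM in sgPLOD2 and 0.185 ± 0.049 FPKM in sgControl (SD, n = 3 each), a ratio of 14.3. On the log2(FPKM + 1) scale this was a difference of 1.62 ± 0.08 (SE), against 3.75 ± 0.23 (SE) in the authors' deposited table. The added 1 FPKM shrinks the change of weakly expressed genes in this way. Its antisense partner HAS2-AS1, which shares 2098 bases with HAS2 on the opposite strand, had 1.75, 1.53 and 1.37 FPKM in sgPLOD2, against 0.0913, 0.200 and 0.0164 FPKM in sgControl. HAS2-AS1 did not reach the minimum mean and was singled out after its values were seen. Whether counting used strand is not given in the sources used here, so reads of HAS2 and HAS2-AS1 in the shared stretch may not have been told apart.

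HAS1, the third synthase, was near absent in both groups. HAS1 (ENSG00000105509; chromosome 19, 51713112 to 51723991, minus strand) had 0.0410, 0.0144 and 0.0121 FPKM in sgPLOD2, against 0.00899 FPKM in sgControl replicate 1 and a listing at 0 in sgControl replicates 2 and 3. The authors' deposited table gave it a mean normalized count of 3.89 over the 6 libraries, too few to read a difference from. Summed over the family, synthase transcripts came to 20.5 to 21.6 FPKM in sgPLOD2, against 0.907 to 2.68 FPKM in sgControl. HAS3 made up 87.3% ± 0.6 of that sum in sgPLOD2 and 86.9% ± 3.8 in sgControl (SD, n = 3 each), so the make-up of the family differed by less than the spread between sgControl libraries, while its total differed.

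**Figure D2:**
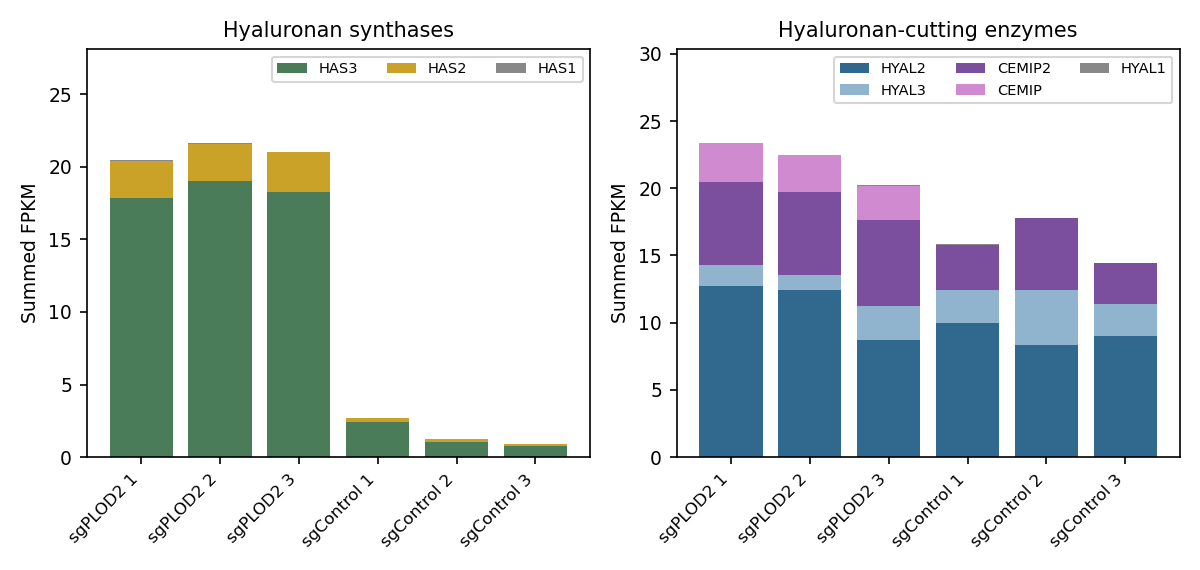
Summed FPKM per library (3 sgPLOD2 libraries left of 3 sgControl libraries) of the hyaluronan synthases (left) and of the hyaluronidases with CEMIP and CEMIP2 (right), stacked by gene. The synthase sum lies between 20.5 and 21.6 FPKM in sgPLOD2 and between 0.907 and 2.68 FPKM in sgControl with HAS3 as the main part of both, and CEMIP is visible in sgPLOD2 only.

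CEMIP, a secreted hyaluronan-binding protein that fibroblasts need to depolymerise hyaluronan, had the largest ratio of the 10 genes. CEMIP (ENSG00000103888; chromosome 15, 80779343 to 80951776, plus strand) had 2.86, 2.78 and 2.57 FPKM in sgPLOD2, against 0.00376, 0.0140 and 0.0129 FPKM in sgControl. The sgControl libraries were all close to 0 and the sgPLOD2 libraries close to each other. CEMIP averaged 2.74 ± 0.15 FPKM in sgPLOD2 and 0.0102 ± 0.0056 FPKM in sgControl (SD, n = 3 each), a ratio of 268 that rests on very low control values. On the log2(FPKM + 1) scale the difference was 1.89 ± 0.08 (SE), and the authors' deposited table gave 7.92 ± 0.31 (SE). CEMIP overlaps MESD, a chaperone gene on the opposite strand, for 5488 bases. MESD had 6.28, 8.88 and 5.26 FPKM in sgPLOD2 and 4.27, 7.90 and 7.92 FPKM in sgControl and was not called (adjusted p = 0.916).

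CEMIP2, a transmembrane relative of CEMIP that has been described as a cell-surface hyaluronidase, was higher in sgPLOD2 by much less. CEMIP2 (ENSG00000135048; chromosome 9, 71683366 to 71816690, minus strand) had 6.20, 6.20 and 6.40 FPKM in sgPLOD2, against 3.38, 5.29 and 3.04 FPKM in sgControl. The groups did not overlap, but sgControl replicate 2 lay nearer to the sgPLOD2 libraries than to the other control libraries. CEMIP2 averaged 6.27 ± 0.11 FPKM in sgPLOD2 and 3.91 ± 1.21 FPKM in sgControl (SD, n = 3 each), with a log2 fold change of 0.59 ± 0.17 (SE). Of the 6 called members CEMIP2 was the one that lost its call under an alternative: 5 of 16 ended it, which were no filter and leaving out any sgPLOD2 library or sgControl replicate 3. HAS2, CEMIP, TNFAIP6 and LAYN passed the minimum only through the group where they were high, so nothing is read from the calls they kept. CEMIP made up 30.4% ± 1.5 of the CEMIP and CEMIP2 sum in sgPLOD2 and 0.266% ± 0.156 in sgControl (SD, n = 3 each).

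The hyaluronidase genes lie side by side on the short arm of chromosome 3, a region that clear cell renal carcinomas commonly lose in part, and their levels overlapped between groups. HYAL2, a membrane-anchored enzyme that cuts long chains at the cell surface, is at 50317790 to 50322782 on the minus strand (ENSG00000068001). HYAL2 had 12.8, 12.4 and 8.71 FPKM in sgPLOD2, against 9.99, 8.31 and 8.99 FPKM in sgControl. Only sgPLOD2 replicates 1 and 2 were above every control library, and the log2 fold change was 0.27 ± 0.15 (SE). HYAL2 was called higher under 1 of 16 alternatives, without sgPLOD2 replicate 3. Relative to the median fold change of its chromosome, a setting called chromosome medians removed below, HYAL2 was at -0.06. HYAL3, a family member whose own enzyme activity is uncertain, is at 50292831 to 50299405 on the minus strand (ENSG00000186792). HYAL3 had 1.51, 1.08 and 2.50 FPKM in sgPLOD2, against 2.43, 4.15 and 2.40 FPKM in sgControl. The sgPLOD2 replicate 3 value of HYAL3 lay within the control range, and the log2 fold change was -0.57 ± 0.23 (SE), against -0.90 ± 0.34 (SE) in the authors' deposited table. The authors' adjusted p for HYAL3 was under 0.05, the threshold used here, so the 2 comparisons differed on this gene. HYAL3 was called lower under 3 of 15 alternatives: quantile normalization, chromosome medians removed and without sgPLOD2 replicate 3.

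HYAL1, the lysosomal and serum hyaluronidase (ENSG00000114378; chromosome 3, 50299890 to 50312381, minus strand), was near absent, with 0.00977, 0.00447 and 0.0296 FPKM in sgPLOD2 and 0.020, 0.0302 and 0.00798 FPKM in sgControl. In the normal body HYAL1 and HYAL2 are the main hyaluronidases of somatic tissues, and here HYAL2 made up 86.3% ± 7.7 of the family sum in sgPLOD2 and 75.3% ± 7.6 in sgControl (SD, n = 3 each). The family sum was 11.2 to 14.3 FPKM in sgPLOD2 and 11.4 to 12.5 FPKM in sgControl, so the ranges overlapped. The genes of this cluster overlap others on the same strand: HYAL3 shares 3020 bases with the N-acetyltransferase gene NAA80, and HYAL2 shares 2880 bases with TUSC2. How reads in these stretches were assigned is not given in the sources used here. NAA80 fell (1.55 ± 0.02 FPKM in sgPLOD2 and 3.47 ± 0.30 FPKM in sgControl, limma adjusted p = 0.000409) and TUSC2 rose (15.8 ± 0.78 FPKM in sgPLOD2 and 10.9 ± 0.43 FPKM in sgControl, limma adjusted p = 0.00227), though TUSC2 was not called with chromosome medians removed (0.147). Whether shared reads moved HYAL2 or HYAL3 was not tested.

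TNFAIP6 encodes TSG-6, a secreted protein induced by inflammatory cytokines that transfers heavy chains of inter-alpha-inhibitor onto hyaluronan. TNFAIP6 (ENSG00000123610; chromosome 2, 151357592 to 151380046, plus strand) had 0.105, 0.169 and 0.0385 FPKM in sgPLOD2, against 11.6, 9.40 and 8.61 FPKM in sgControl. All sgPLOD2 libraries were close to 0 and none came near the control range. On the log2(FPKM + 1) scale the difference was -3.29 ± 0.12 (SE), and that in the authors' deposited table was -6.65 ± 0.34 (SE). The mean in sgControl was 94.6 times that in sgPLOD2, and the fold change ranked 17 from the lowest of all tested genes.

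LAYN encodes layilin, a membrane receptor with a C-type lectin domain that binds hyaluronan outside the cell and talin, radixin and merlin inside it. LAYN (ENSG00000204381; chromosome 11, 111540280 to 111561745, plus strand) had 0.781, 0.605 and 0.547 FPKM in sgPLOD2, against 18.3, 19.5 and 20.1 FPKM in sgControl. The control libraries lay within a narrow band far above every sgPLOD2 library. LAYN averaged 0.645 ± 0.122 FPKM in sgPLOD2 and 19.3 ± 0.93 FPKM in sgControl (SD, n = 3 each), with a log2 fold change of -3.63 ± 0.09 (SE) and -4.99 ± 0.17 (SE) in the authors' deposited table. With 1 FPKM added, LAYN had the lowest fold change of the 10 genes and ranked 9 from the lowest of all tested genes. TNFAIP6 was lower than LAYN with a pseudocount of 0.1 (-5.65 against -4.71), under TPM (-4.79 against -4.35) and by ratio of means.

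The order of mean levels differed between the groups, with HYAL2 and CEMIP2 among the top 4 in both. In sgPLOD2 it ran HAS3, HYAL2, CEMIP2, CEMIP, HAS2, HYAL3, LAYN, TNFAIP6, HAS1 and HYAL1, from high to low. In sgControl it ran LAYN, TNFAIP6, HYAL2, CEMIP2, HYAL3, HAS3, HAS2, HYAL1, CEMIP and HAS1. The ranges of neighbours in the order overlapped in sgPLOD2 for CEMIP and HAS2, TNFAIP6 and HAS1, and HAS1 and HYAL1. They overlapped in sgControl for TNFAIP6 and HYAL2, CEMIP2 and HYAL3, HYAL3 and HAS3, HYAL1 and CEMIP, and CEMIP and HAS1. All other neighbours were separate.

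Genes with profiles most like those of LAYN and TNFAIP6, the members with the largest absolute fold changes on the log2(FPKM + 1) scale, were found by the distance between mean-centred log2(FPKM + 1) values over the 6 libraries. The nearest to LAYN were the DNA repair gene MGMT (distance 0.214), CLEC4O (0.215) and the chemokine gene CCL20 (0.243). The nearest to TNFAIP6 were the stress cytokine gene GDF15 (0.244), the antiviral gene OAS2 (0.284) and CCL20 (0.402). CCL20 had 0.355, 0.387 and 0.304 FPKM in sgPLOD2, against 15.98, 14.7 and 14.6 FPKM in sgControl. MGMT, CLEC4O, CCL20, GDF15 and OAS2 passed the minimum only through sgControl, as LAYN and TNFAIP6 did. The distance depends largely on the size of the group difference, so shared regulation is not read from it.

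The tested genes nearest to the hyaluronan genes on the chromosome are described here, at gaps from 0 kb (CHTF8) to 1269 kb (KLF9, at CEMIP2). A gene so far away does not describe the stretch around a member. The nearest tested protein-coding gene on each side of the 10 genes gave 17 genes outside the group, of which 7 rose and 3 fell, with log2 fold changes between -0.81 and 0.84. These 10 calls among 17 genes stand beside 52.9% called over all tested genes. The hyaluronan genes were chosen with this comparison known, so their fold changes are not set against those of the neighbours. Both neighbours of HAS2 rose, at gaps of 799 kb (SNTB1) and 1140 kb (ZHX2). The syntrophin gene SNTB1 averaged 3.21 ± 0.41 FPKM in sgPLOD2 and 1.58 ± 0.16 FPKM in sgControl (limma adjusted p = 0.00153). The repressor gene ZHX2 averaged 8.59 ± 0.36 FPKM in sgPLOD2 and 5.90 ± 1.18 FPKM in sgControl (limma adjusted p = 0.0198). ZHX2 lost its call without sgPLOD2 replicate 2 or replicate 3 (limma adjusted p = 0.0634 and 0.0635). Neither neighbour of HAS3 was called. TANGO6 had 3.36, 3.54 and 3.65 FPKM in sgPLOD2 against 2.31, 3.77 and 3.21 FPKM in sgControl (limma adjusted p = 0.376), and was called higher with chromosome medians removed (0.0488). CHTF8, which overlaps HAS3 by 710 bases on the opposite strand, was called higher under 1 alternative, without sgControl replicate 3 (adjusted p = 0.0230, against 0.266 with all libraries).

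Around CEMIP, ABHD17C rose (log2 fold change 0.64 ± 0.08 SE, limma adjusted p = 0.000796). The neighbours of TNFAIP6 went apart. NMI, an interferon-inducible gene, had 4.55, 5.10 and 4.35 FPKM in sgPLOD2, against 8.12, 8.16 and 8.01 FPKM in sgControl, and fell (limma adjusted p = 0.000792). RIF1, a replication-timing gene, averaged 1.77 ± 0.30 FPKM in sgPLOD2 and 0.838 ± 0.394 FPKM in sgControl and rose (limma adjusted p = 0.0179). RIF1 passed the minimum only through sgPLOD2, and lost its call with no filter, quantile normalization, chromosome medians removed or without sgPLOD2 replicate 3 (limma adjusted p between 0.0514 and 0.0659). Beside LAYN, the kinase gene SIK2 rose (4.40 ± 0.41 FPKM in sgPLOD2 and 2.44 ± 0.35 FPKM in sgControl, limma adjusted p = 0.00258), the opposite direction to LAYN. FDX1, on the other side of LAYN at a gap of 1075 kb, was not called (limma adjusted p = 0.437). FPR1, beside HAS1, rose (1.58 ± 0.09 FPKM in sgPLOD2 and 0.450 ± 0.143 FPKM in sgControl, limma adjusted p = 0.000542) but passed the minimum only through sgPLOD2. ABHD17B, beside CEMIP2, fell (limma adjusted p = 0.0312) and lost its call under 7 of 15 alternatives, with adjusted p up to 0.102.

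Median fold changes over whole chromosomes were smaller than those of the genes that differed most. They were 0.03 on chromosome 8 (HAS2), -0.25 on chromosome 16 (HAS3), 0.13 on chromosome 15 (CEMIP), -0.11 on chromosome 9 (CEMIP2), 0.16 on chromosome 2 (TNFAIP6), 0.19 on chromosome 11 (LAYN) and 0.33 on chromosome 3 (the hyaluronidases). The fold change and the chromosome median had the same sign for HAS2, CEMIP and HYAL2. They had opposite signs for HAS3, CEMIP2, TNFAIP6, LAYN and HYAL3. These genes were chosen with this comparison known, and a whole-chromosome median does not describe a local stretch. Whether a regional change played a part was not tested. The HYAL2 fold change of 0.27 lay below its chromosome's median.

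**Figure D3:**
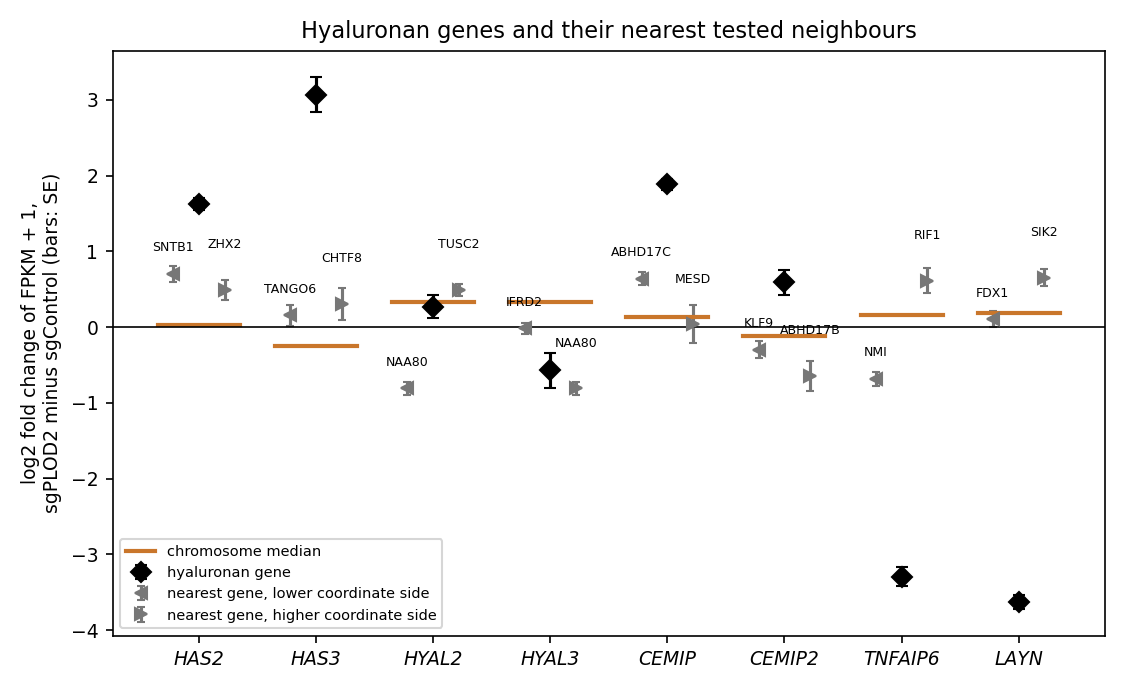
Log2 fold change of FPKM + 1 (sgPLOD2 minus sgControl, bars are SE) for the 8 tested hyaluronan genes (black), the nearest tested protein-coding gene on each side (grey) and the median of the chromosome (orange). The neighbours shown lie between -0.81 and 0.70. The hyaluronan genes were chosen with this comparison known, so their extremes are not set against that range. Neighbours of HAS1, which was not tested, are not drawn.

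Other genes of the hyaluronan pathway, listed by textbook role, had log2(FPKM + 1) fold changes between -0.93 (GUSB) and 1.47 (MSN) where tested. By ratio, some weakly expressed genes that were not tested differed by more, such as HABP2 and, as given below, TLR2. HABP2, singled out after its values were seen, averaged 0.0315 FPKM in sgPLOD2 and 0.474 FPKM in sgControl. The members were chosen with this comparison known, so their extremes are not set against these lists. Of 43 genes in the lists 23 were tested, of which 8 rose and 5 fell at a limma adjusted p under 0.05, against 29.5% of all tested genes called higher and 23.5% lower. The median log2 fold change was 0.17 for these genes and 0.06 for all tested genes. The split was 5 higher and 7 lower with chromosome medians removed and 6 and 6 with median-of-ratios scaling. It was 4 to 9 higher and 3 to 5 lower when single libraries were left out. The counts were lowest, at 4 higher, without sgPLOD2 replicate 2, sgPLOD2 replicate 3 or sgControl replicate 3, and at 3 lower without sgPLOD2 replicate 2 or 3.

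Enzymes that make the sugar precursors moved both ways and by little. Of 8 tested, 3 rose and 1 fell, beside 29.5% of all tested genes called higher and 23.5% lower. GFPT2, an isoform of the rate-limiting enzyme of the hexosamine pathway, had 5.08, 4.76 and 5.08 FPKM in sgPLOD2, against 3.36, 3.69 and 3.71 FPKM in sgControl (limma adjusted p = 0.00774). GNPNAT1, the glucosamine-6-phosphate acetyltransferase gene, had 19.8 ± 2.16 FPKM in sgPLOD2 and 13.7 ± 1.31 FPKM in sgControl (SD, n = 3 each, limma adjusted p = 0.00863). GNPNAT1 lies on chromosome 14, whose median was 0.54, and with chromosome medians removed its log2 fold change was -0.04 instead of 0.50 (limma adjusted p = 0.773). NAGK, the salvage kinase gene, rose (5.25 ± 0.18 FPKM in sgPLOD2 and 4.19 ± 0.42 FPKM in sgControl, limma adjusted p = 0.0431), and UAP1, which makes UDP-N-acetylglucosamine, fell (21.0 ± 1.35 FPKM in sgPLOD2 and 26.8 ± 2.99 FPKM in sgControl, limma adjusted p = 0.0319). NAGK lost its call under 10 of 15 alternatives, the replicate block among them (0.0601), and UAP1 under 9 of 16. UGDH, which makes UDP-glucuronate, had 12.4, 14.6 and 12.2 FPKM in sgPLOD2, against 14.8, 15.5 and 14.4 FPKM in sgControl and was not called (limma adjusted p = 0.152), except with median-of-ratios scaling (0.0376) and chromosome medians removed (0.0147), where it was lower.

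Lysosomal exoglycosidases, which take hyaluronan fragments apart sugar by sugar, included genes that fell. GUSB, the beta-glucuronidase gene, had 16.4, 16.7 and 17.2 FPKM in sgPLOD2, against 26.5, 36.9 and 36.3 FPKM in sgControl, and fell (log2 fold change -0.93 ± 0.13 SE, limma adjusted p = 0.00130). HEXA, a beta-hexosaminidase subunit gene, fell (5.31 ± 0.20 FPKM in sgPLOD2 and 6.81 ± 0.24 FPKM in sgControl, limma adjusted p = 0.0161), but not under TPM (0.0819) or without sgPLOD2 replicate 2 or 3 (0.0519 and 0.0548). The hyaluronidase genes SPAM1 and HYAL4 were listed at 0 in every library.

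Of 7 hyaluronan receptor genes 2 were tested. CD44, the principal hyaluronan receptor of most cells, had 29.5, 25.3 and 22.9 FPKM in sgPLOD2, against 12.1, 16.3 and 13.6 FPKM in sgControl, and rose (log2 fold change 0.85 ± 0.14 SE, limma adjusted p = 0.00210). HMMR, which also serves the mitotic spindle, had 7.17, 7.40 and 8.22 FPKM in sgPLOD2, against 12.2, 7.05 and 5.16 FPKM in sgControl and was not called (limma adjusted p = 0.961). The sgControl libraries of HMMR spanned the whole sgPLOD2 range. The endothelial receptors LYVE1, STAB1 and STAB2 stayed below 0.02 FPKM in every library. TLR2, an innate receptor below the minimum mean that was singled out after its values were seen, had 0.616, 0.792 and 0.310 FPKM in sgPLOD2, against 0.0521, 0.0275 and 0.0579 FPKM in sgControl.

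Among other hyaluronan-binding proteins and partners of TSG-6, 5 of 18 were tested, of which 0 rose and 2 fell. The shares over all tested genes were 29.5% called higher and 23.5% lower. PTX3, a pentraxin that TSG-6 uses to cross-link hyaluronan in the cumulus matrix of mice, had 16.3, 18.8 and 15.95 FPKM in sgPLOD2, against 23.5, 30.4 and 27.7 FPKM in sgControl (log2 fold change -0.64 ± 0.12 SE, limma adjusted p = 0.00357). HABP4, named for hyaluronan binding but mainly an intracellular RNA-binding protein, had 13.2, 12.5 and 12.6 FPKM in sgPLOD2, against 21.6, 21.6 and 22.6 FPKM in sgControl (limma adjusted p = 0.000306). The hyalectan gene VCAN, the link protein gene HAPLN3 and C1QBP were not called, and C1QBP was close to the threshold (limma adjusted p = 0.0518). Genes of the inter-alpha-inhibitor heavy chain family, ITIH1 to ITIH5, stayed below 0.4 FPKM in every library. AMBP, which encodes the bikunin chain, had 0.612 to 0.841 FPKM in sgPLOD2 and 0.496 to 0.628 FPKM in sgControl.

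Of 5 genes for proteins that link layilin or CD44 to the cytoskeleton, 4 rose and 0 fell. Over all tested genes 29.5% were called higher and 23.5% lower, and nothing is read from so short a list. MSN, the moesin gene, had 351, 369 and 382 FPKM in sgPLOD2, against 107, 159 and 135 FPKM in sgControl (log2 fold change 1.47 ± 0.14 SE, limma adjusted p = 0.000277). RDX (radixin) averaged 9.07 ± 1.02 FPKM in sgPLOD2 and 6.23 ± 1.16 FPKM in sgControl (SD, n = 3 each). NF2 (merlin) averaged 24.9 ± 1.20 FPKM in sgPLOD2 and 18.4 ± 2.76 FPKM in sgControl. TLN1 (talin) averaged 91.9 ± 8.68 FPKM in sgPLOD2 and 69.3 ± 8.47 FPKM in sgControl. Their limma adjusted p were 0.0234 for RDX, 0.0191 for NF2 and 0.0231 for TLN1. Each of these 3 lost its call without sgPLOD2 replicate 2, sgPLOD2 replicate 3 or sgControl replicate 3, with adjusted p between 0.0564 and 0.0823. RDX also lost it with no filter (limma adjusted p = 0.0581) and with chromosome medians removed (0.127). TLN1 also lost it with no filter (limma adjusted p = 0.0557) and with median-of-ratios scaling (0.0713). EZR (ezrin) had 160, 156 and 167 FPKM in sgPLOD2, against 114, 159 and 154 FPKM in sgControl and was not called.

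**Figure D4:**
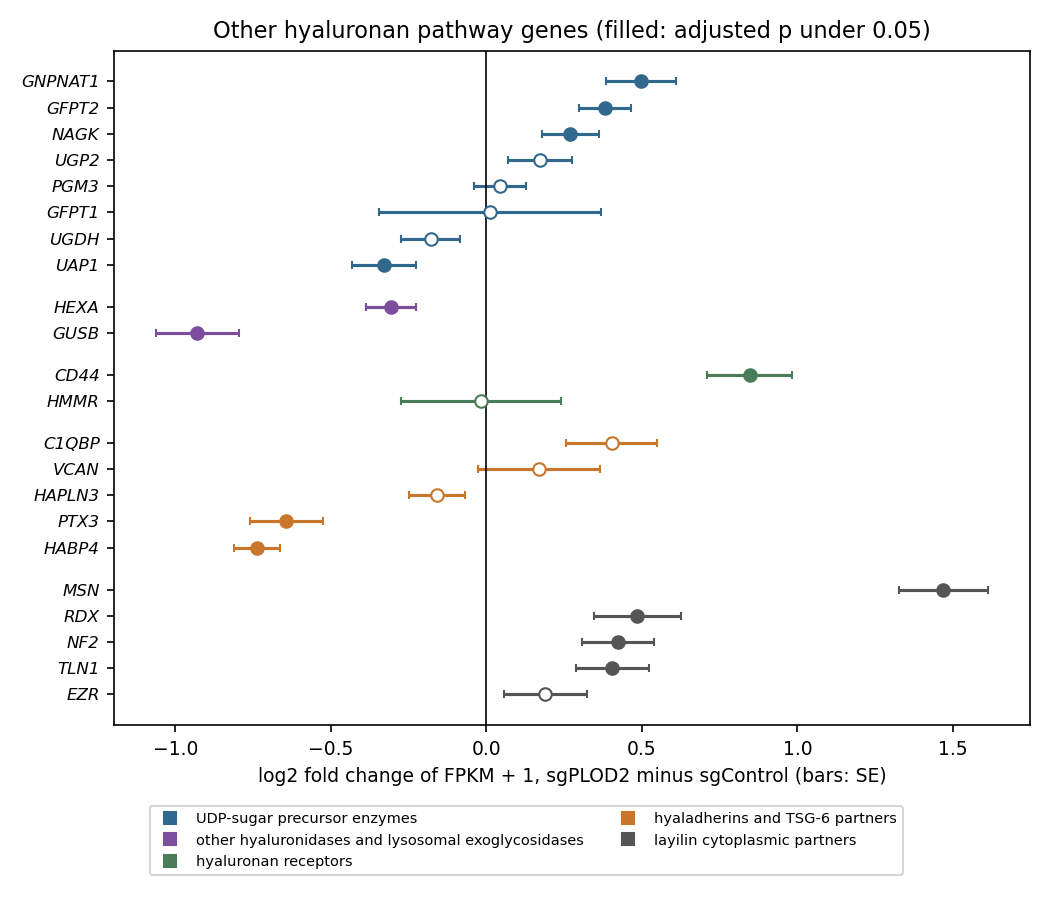
Log2 fold change of FPKM + 1 (sgPLOD2 minus sgControl, bars are SE) of tested genes of the wider hyaluronan pathway, coloured by role and filled where the limma adjusted p was under 0.05. MSN (1.47) and CD44 (0.85) lie highest, and GUSB (-0.93), HABP4 (-0.74) and PTX3 (-0.64) lowest.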

How the data were processed

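The deposited table holds, per the file headers, 1 FPKM value per gene and library beside the authors' comparison: a signal (their mean normalized count over all libraries), a log2 fold change and its error, a test score and p-values. The submitters' processing notes list CASAVA, HISAT2 2.1.0, StringTie 1.3.4 and GRCh38 with no step attached. Counter, strand setting and the tool behind that comparison: not given in the sources used here. Depth per library is unknown, so no counting interval is given. Chromosomes, strands and overlaps came from GENCODE release 29, which held 58275 of the 58395 identifiers.

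Differences in log2(FPKM + 1) were tested 2-sided by limma 3.58.1 (R 4.3.3; eBayes, trend on), with Benjamini-Hochberg adjustment over the 10469 genes averaging 1 FPKM or more and a threshold of 0.05. The steps were tested on simulated data with 200 changed genes and independent noise. Far more genes were called here, so that test does not cover this setting. Fold changes are sgPLOD2 minus sgControl, and genes below the minimum have no test. Genes were named by rule: all 10 hyaluronan genes, PLOD2 and HIF1A, called genes of 5 pathway lists with CD44, HMMR and UGDH, nearest neighbours, and the 3 genes most like each of the 2 members that differed most on the log2(FPKM + 1) scale. Genes outside this rule were picked once their values were known. The members, lists and tests were chosen with earlier results of these data known. Alternatives were other pseudocounts, filters and scalings, no trend, the replicate block, removal of chromosome medians and leaving out each library. The score was not used. A tested pathway gene, not called, enters the counts but is not reported here.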

Additional observations from a re-analysis of the deposited data

How the results depend on the processing

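The direction of HAS2, HAS3, CEMIP, CEMIP2, TNFAIP6 and LAYN was the same under every alternative that gave a value, with log2 fold changes of 1.53 to 3.28, 2.87 to 3.76, 1.76 to 4.69, 0.47 to 0.81, -5.65 to -3.18 and -4.71 to -3.58. The value farthest from 0 came from a pseudocount of 0.1 for each of these but CEMIP2, where it came from TPM. At a minimum mean of 5 FPKM, 1361 genes were called higher over all genes (fewer were tested), and among the hyaluronan genes 2 were called higher and 1 lower, since HAS2, CEMIP and TNFAIP6 were not tested. Leaving out single libraries gave 3 to 4 hyaluronan genes called higher and 2 to 3 lower, and not always the same genes: without sgPLOD2 replicate 3, HYAL2 and HYAL3 were called and CEMIP2 was not. Of the pathway genes 5 were called higher and 7 lower with chromosome medians removed, 6 and 6 with median-of-ratios scaling, and 9 and 3 under TPM; without single libraries the numbers were 4 to 9 and 3 to 5. Higher calls made up 55.7% of all calls as deposited, 66.8% under TPM, 50.3% with quantile normalization, 48.5% with chromosome medians removed, 47.1% with median-of-ratios scaling and 45.2% at the 5 FPKM minimum. The median of all tested genes was 0.06 as deposited, 0.20 under TPM and -0.02 with median-of-ratios scaling.

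With chromosome medians removed, GNPNAT1 turned to -0.044 and FDX1, not called, to -0.089. Genes near 0 and not called also turned: HMMR to 0.12 under TPM, IFRD2 to 0.12 under TPM and 0.087 with quantile normalization, and MESD to -0.052 with median-of-ratios scaling, -0.032 after quantile scaling and -0.092 with chromosome medians removed. IFRD2 was called lower with chromosome medians removed (-0.35, limma adjusted p = 0.00856). Without single libraries HMMR spanned -0.27 to 0.29, IFRD2 -0.045 to 0.012 and MESD -0.22 to 0.18. The causes were not tested.

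Same-numbered libraries deviated together by correlations of 0.014, 0.135 and -0.049 and did not all correlate best with their own number, so the numbers were not taken to pair samples. With the replicate block 2984 genes were called higher and 2335 lower, 7 and 5 of the pathway genes, and 4 and 2 of the hyaluronan genes. Unknown depth limits what can be said of HAS1, HYAL1 and the control level of CEMIP.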
